A study of Mus musculus with 8 samples.

Results

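Late G1 cells were compared with cycling cells over all genes of a PRO-seq table, using the deposited columns of mouse FUCCI2 induced pluripotent stem cells taken 3 h after release from mitosis and of untreated asynchronous cells. PRO-seq extends nascent RNA by a labelled base in permeable nuclei, and the reads over a gene therefore count engaged RNA polymerases rather than mRNA. The comparison holds 4 of the 8 libraries of the series (2 late G1 and 2 asynchronous) and 14718 of the 14861 genes of the table. The 143 other genes were listed at 0 in either column (129) or had a mean signal under 0.5 (14).

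Both groups came from a clonal FUCCI2 line, which carries fluorescent cell-cycle reporters, grown on irradiated feeder cells in KO-DMEM with FBS, LIF and 2i (a MEK inhibitor and a GSK3 inhibitor). The late G1 cells had been held with nocodazole, a microtubule poison (200 ng/ml, 6 h), collected by mitotic shake-off and put in fresh medium for 3 h, while the asynchronous cells received no nocodazole. Late G1 therefore cannot be told apart here from the earlier nocodazole, the shake-off or the fresh medium. Nothing in the labels says whether the libraries of a group came from separate cultures, and the line is 1 clone.

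Transcription of many genes follows the cell cycle. Genes of mitosis are repressed in G1 by the DREAM complex, which sits at promoter elements named CHR, and are activated again in G2, while genes of DNA replication are driven by E2F factors from late G1 on. Pluripotent stem cells have a short G1, in which little of the pocket-protein brake operates. Damage or an extended mitosis can stabilise p53, whose targets arrest the cycle, induce death or act back on p53 itself.

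At the authors' scaling the typical gene had a slightly higher signal in late G1 than in asynchronous cells. The median log2 ratio, taken on signal plus 0.1, was 0.21 (1.16-fold), and the quartiles were -0.23 and 0.73. At least 2-fold higher signal was found for 2509 of 14718 genes (17.0%) and at least 2-fold lower signal for 755 (5.13%). At least 4-fold differences were found for 673 genes upward and 118 downward. The split depends on how the columns are scaled: with equal column medians it was 1929 higher and 1164 lower, and with quantile normalization 1523 and 1359. The median shift depends on it too. The median log2 ratio was 0.01 with equal column medians, which sets it near 0 by construction, and -0.04 with quantile normalization. Each column is 1 value per gene, so these counts have no replicate test, and changes of gene groups are given below relative to the median gene. In bulk samples a lower signal cannot be told apart from fewer cells that transcribe the gene.

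**Figure D1:**
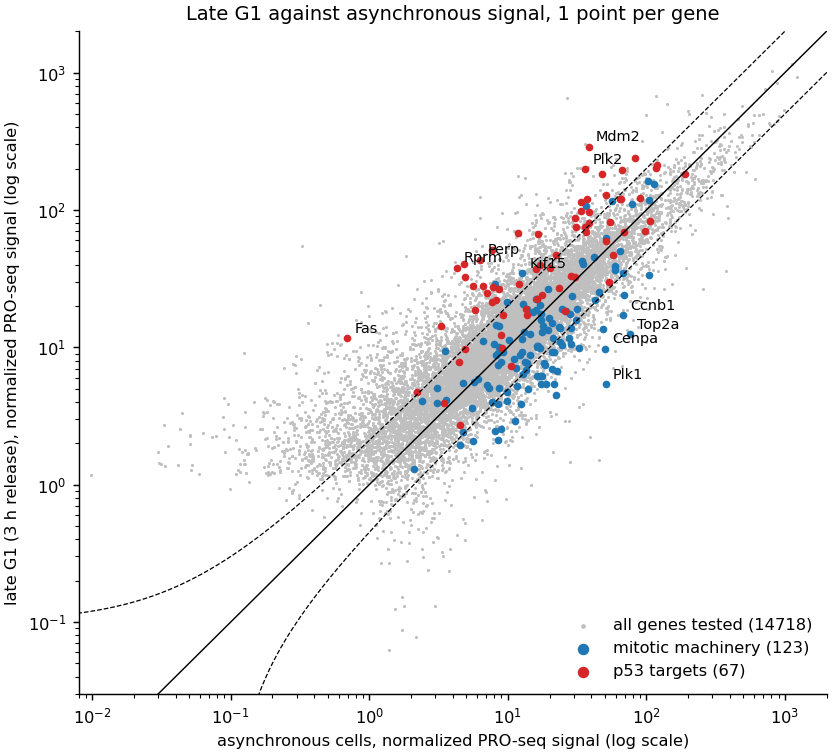
Normalized PRO-seq signal of 14718 genes in asynchronous cells (x axis, log scale) and in late G1 (y axis, log scale), 1 grey point per gene, with the solid line at equal signal and dashed lines at 2-fold on signal plus 0.1. Mitotic machinery genes (blue, 123) lie mostly below the solid line, with 38 past the lower dashed line and 6 past the upper one, and p53 targets (red, 67) mostly above it, with 36 past the upper dashed line and 0 past the lower one.

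For 1610 genes (10.8% of the table) the values could be taken apart into their libraries. The deposited values of such a gene equal the mean of 2 libraries, each a whole number of reads times a fixed factor of that library, divided by 1 length of the gene (relative tolerance 1e-11). None of 2000 genes could be written that way after their late G1 value had been swapped for another gene's and shifted slightly. The shift itself breaks the whole-read form, and most genes were not recovered even unaltered. The outcome of this check was therefore largely fixed in advance, and no conclusion is drawn from it. The recovered genes are short (median RefSeq span 4550 bp against 21746 bp over the genes tested), and which library bears which replicate letter is unknown. They show how far the replicates of a group lie apart. The late G1 libraries differed by a median of 0.58 on the log2 scale at the authors' scaling (0.03 for the asynchronous libraries), which is more than the shift of the median gene between the groups. After removing those medians, 2.67% of genes with at least 100 reads in the late G1 libraries together still lay 2-fold apart between them, as did 22.8% of genes with 20 to 99 reads and 55.6% of genes with fewer. The corresponding shares of the asynchronous libraries were 2.35%, 20.1% and 49.7%. A 2-fold difference of a gene with few reads is thus common between replicates. Where the groups of a gene are said below not to overlap, this describes that gene's library values only. The share of all recovered genes whose groups separate in this way was not counted, so a separation is not taken as support for a difference.

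Tested on library signals, 97 recovered genes differed between the groups. Of 1310 genes with a mean of at least 10 reads per library, limma called 64 higher in late G1 (4.89%) and 33 lower (2.52%) at an adjusted p below 0.05. All 97 were also past 2-fold in the combined columns, where 192 of these genes were higher and 146 lower, so 33.3% and 22.6% of the 2-fold differences passed the test. With the libraries scaled to equal medians limma called 89 higher and 78 lower, including 61 and 32 of the former. Without the first asynchronous library the calls were 19 and 10, and without the second 20 and 5. Leaving out the first late G1 library gave 24 and 62, and leaving out the second 31 and 8, so the split between higher and lower calls depends on the late G1 library that is kept.

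Genes of the mitotic machinery were lower as a group, and 2 of its lists had the lowest medians of the 45 lists at the authors' scaling. Across 4 lists (mitotic kinases and cyclins, kinetochore and checkpoint genes, mitotic kinesins, spindle and cytokinesis genes) 38 of 123 members were at least 2-fold lower (30.9%, against 5.13% of all genes) and 6 at least 2-fold higher (4.88%, against 17.0%). The median log2 ratio of these members was -0.66. The share of lower members was no smaller in several other lists described below: 36.4% of histone variants, 34.6% of glycolysis genes, 33.3% of FOXO and fasting genes and 32.1% of ATF4 and unfolded protein response genes. Mitotic kinases and cyclins had 12 of 30 members lower, 0 higher and a median 0.93 below that of all genes, and over all settings tried this distance lay between -0.97 and -0.89. Plk1, the polo kinase gene that acts throughout mitosis (chromosome 7, start at 122159508), had a signal of 5.38 after 3 h and 51.1 in cycling cells, 9.34-fold lower. Ccnb1, the gene of cyclin B1, was 3.91-fold lower, with 17.2 against 67.4. The phosphatase gene Cdc25c, which switches on CDK1, had 2.11 and 8.55. Tpx2, an activator of Aurora A, had 2.92 and 11.4, and the checkpoint kinase gene Bub1 had 2.52 and 8.89. At 1 h the columns listed 7.17 for Plk1, 22.7 for Ccnb1, 5.85 for Cdc25c, 3.68 for Tpx2 and 5.50 for Bub1. Plk1, Ccnb1 and Tpx2 were thus at least 2-fold below their asynchronous level by 1 h, and Cdc25c and Bub1 were not.

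Kinetochore genes were divided. Of 45 members 10 were at least 2-fold lower (22.2%, against 5.13% of all genes) and 2 higher (4.44%, against 17.0%), with a median of -0.38. Cenpa, the centromeric histone H3 variant, had 9.80 in late G1 against 50.3 in asynchronous cells, and Cenpf had 5.45 and 21.4. The cohesin protector Sgo2a (3.88 and 12.6), the scaffold gene Knl1 (2.07 and 5.62), Ndc80 (4.10 and 9.87) and Ska1 (9.30 and 21.5) were lower as well. The members above 2-fold, picked after their values were seen, were Cenpt at a log2 ratio of 1.54 and Spc25 at 1.11. Among 14 mitotic kinesins, Kif23 (4.50 and 22.5), Kif2c (5.40 and 19.0), Kif18a (2.45 and 8.05, in a gene that overlaps Mettl15) and Kif4 (1.94 and 4.50) were lower. Kif15 went against them, with 34.7 in late G1 and 12.7 in asynchronous cells. Spindle and cytokinesis genes had 13 of 36 members lower (36.1%) and 3 higher (8.33%). Top2a, the topoisomerase that separates sister DNA, stood at 12.5 and 76.3, the proliferation antigen gene Mki67 at 6.77 and 22.8, and Racgap1, of the central spindle, at 5.36 and 17.3. The higher members, picked after their values were seen, were the augmin genes Haus2 (1.82) and Haus3 (1.39) and Gtse1 (1.04), all as log2 ratios. Library tests were possible for 3 members of these 4 lists, which did not pass. Cenpx, of the CENP-T complex, had late G1 libraries at 172 and 151 and asynchronous libraries at 110.4 and 94.7 (adjusted p = 0.409 by limma). Haspin, a histone kinase gene that overlaps Itgae, had library signals of 26.5 and 24.2 in late G1 and 44.4 and 46.6 in asynchronous cells (limma log2 difference -0.84, adjusted p = 0.323). Sgo1 had 26.2 and 17.7 against 28.3 and 56.8 (adjusted p = 0.333 by limma). In Haspin and Sgo1 both late G1 libraries lay below both asynchronous libraries, and in Cenpx above them.

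The promoters of this group share letters that the choice of genes did not use. The CHR element, TTTGAA on either strand, was searched in RefSeq promoter windows (GRCm38.p6) of 300 bases, 250 before to 50 after the start, found for 9811 of the genes tested. It was present in 49 of the 97 mitotic machinery promoters with a window (50.5%) and in 1086 of all 9811 (11.1%). In the mitotic machinery 41 of the 49 had a match within 40 bases of the start (83.7%), whereas of the other 1037 promoters with a match 191 did (18.4%). Of 6 mitotic genes with a window that were at least 2-fold higher, 2 held the element. Of 29 that were at least 2-fold lower, 17 did, a share not far from the 50.5% of the whole group. A link between the element and a lower signal within the group was not tested. A few of these windows are printed because the element lies close to the start in each of them, read 5′ to 3′ on the gene's strand with the match in capitals (TTCAAA is the element on the opposite strand).
Plk1, chr7:122159453-122159482, plus strand: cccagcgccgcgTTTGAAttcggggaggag
Aurka, chr2:172370521-172370550, minus strand: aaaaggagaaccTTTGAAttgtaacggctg
Cenpa, chr5:30666890-30666919, plus strand: ggcgggtgatttTTTGAActgctggcgacc
Cenpf, chr1:189688067-189688096, minus strand: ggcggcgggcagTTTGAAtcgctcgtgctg
Knl1, chr2:119047138-119047167, plus strand: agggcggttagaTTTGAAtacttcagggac
Kif23, chr9:61946780-61946809, minus strand: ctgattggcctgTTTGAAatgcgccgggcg
Racgap1, chr15:99651634-99651663, minus strand: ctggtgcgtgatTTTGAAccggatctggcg
Top2a, chr11:99024195-99024224, minus strand: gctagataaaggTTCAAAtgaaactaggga
The first base of the match lay 30 bases after the RefSeq start in Plk1, 32 after in Aurka, 16 after in Cenpa, 2 after in Cenpf and Kif23, 31 after in Knl1, 5 after in Racgap1 and 23 before it in Top2a. CCAAT, the box bound by NF-Y, was in 65 of the 97 mitotic windows (67.0%) and in 38.8% of all windows.

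**Figure D2:**
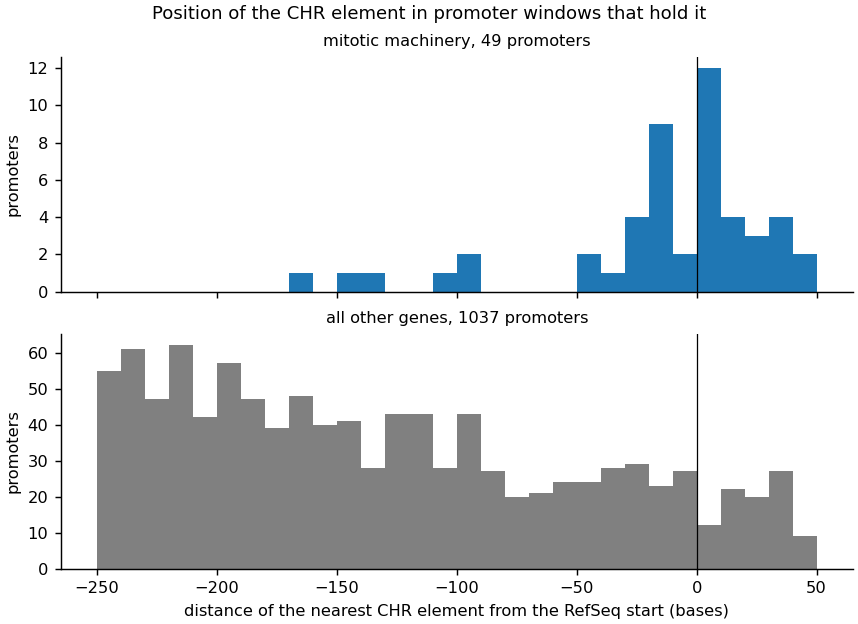
Number of promoters (y axis) by the distance of the nearest CHR element from the RefSeq start in bases (x axis, 10-base bins), for the 49 mitotic machinery promoters that hold it (top) and the other 1037 (bottom). In the mitotic machinery 41 of 49 lie within 40 bases of the start, while in the other promoters 191 of 1037 do.

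Over all promoters, 94 of the 480 lower genes with a window held the CHR element (19.6%) and 161 of the 1542 higher genes (10.4%). Outside the mitotic lists, the 191 genes with the element near the start had 20 lower members (10.5%), 26 higher (13.6%) and a median log2 ratio of -0.04. Genes of that kind that are on no list and in no overlap, picked after their values were seen, included C2cd4a (14.8 in late G1, 42.0 in asynchronous cells), Slc29a1, a nucleoside transporter gene (13.6 and 34.9), and Ankle1, a nuclease gene (21.9 and 50.6). The related letters TTCGAA were in 2.07% of all windows and in 1.67% of those of lower genes, but in 8 of the 97 mitotic machinery windows (8.25%), 2 of them of lower genes.

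The lower members of the anaphase-promoting complex list were activator, inhibitor and ubiquitin-conjugating genes, and no core subunit was among them. Of 21 members 5 were at least 2-fold lower (23.8%, against 5.13% of all genes). They were the activators Cdc20 (18.5 in late G1, 67.6 in asynchronous cells, overlapping Elovl1) and Fzr1 (31.6 and 67.8), the inhibitor Fbxo5 (15.9 and 54.7), and the ubiquitin-conjugating genes Ube2c (42.5 and 133) and Ube2s (31.7 and 82.1). The core subunit Cdc23 was higher (37.8 and 16.8), but it overlaps Kif20a. The median of the list was -0.06. Condensin and cohesin genes had 1 of 22 members past 2-fold, the sororin gene Cdca5 (27.0 and 57.8).

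Replication genes were mostly within 2-fold, as were 77.8% of all genes. Of 28 origin licensing and firing genes 0 were lower and 1 was higher (median -0.05), and of 39 replication fork and nucleotide genes 0 were lower and 1 was higher (median -0.07). The higher members were Mcm7, of the replicative helicase (140.0 in late G1, 56.3 in asynchronous cells), which overlaps Ap4m1, and Rrm2, the small subunit of ribonucleotide reductase (87.5 and 27.2). Pcna, the sliding clamp, had 68.3 and 110.0, Gmnn, the licensing inhibitor geminin, 14.0 and 19.6, and Dbf4, the activator of the origin kinase CDC7, 12.6 and 21.2. Of the replication genes Ticrr, Rfc3 and Dut had enough reads for a library test and did not pass it (adjusted p = 0.523, 0.81 and 0.666 by limma).

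Histone genes were lower for some variants. Of 15 replication-dependent histone genes 1 was past 2-fold (Hist1h2bh, 69.8 in late G1 and 162 in asynchronous cells), with a median of -0.35. Of 11 histone variant genes 4 were at least 2-fold lower (36.4%, against 5.13% of all genes). Of the 4 variant genes with a library test limma called 2 lower, against 2.52% of all genes tested by library. H2afx, whose product marks DNA breaks, fell in the library test: its late G1 libraries had signals of 230 and 108 and its asynchronous libraries 705 and 520 (limma log2 difference -1.94, 95% interval -2.90 to -0.98, adjusted p = 0.014). H1fx, a linker histone gene, fell from 204 and 137 to 64.8 and 52.4 (log2 difference -1.52, adjusted p = 0.0492 by limma). In both genes the groups did not overlap. H2afz, which encodes H2A.Z, had 137 in late G1 against 299 in asynchronous cells.

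Among the regulators of G1 entry, 2 pocket protein genes were higher, and some cyclins and a CDK inhibitor gene were lower. Of 13 E2F and pocket protein genes 4 were at least 2-fold higher (30.8%, against 17.0% of all genes) and 0 lower: Rb1 (16.8 in late G1, 4.18 in asynchronous cells, overlapping Lpar6), Rbl2, which encodes p130 (26.9 and 10.2, overlapping Aktip), E2f6 (10.9 and 5.05) and E2f8 (6.95 and 2.02). E2f8 rests on few reads, 14 and 3 in the late G1 libraries and 3 and 2 in the asynchronous ones. The distance of this list from the median gene, 0.27, ran from -0.11 to 0.36 over the settings tried. Of 18 G1 cyclin, CDK and inhibitor genes 1 was higher (5.56%) and 3 were lower (16.7%, against 5.13% of all genes), and of 10 genes with the stem Cdkn 0 were higher and 1 was lower. Ccng2, an atypical cyclin gene linked to quiescence, fell in the library test: its late G1 libraries held 1 and 3 reads (signals 0.897 and 2.03) and its asynchronous libraries 30 and 37 (26.3 and 29.8), with a limma log2 difference of -4.27 (95% interval -5.69 to -2.84, adjusted p = 0.00124). Ccnd1, the gene of cyclin D1, had library signals of 21.7 and 15.1 in late G1 and 52.3 and 52.6 in asynchronous cells. Its groups did not overlap, and the log2 difference of -1.53 gave an adjusted p of 0.0632 by limma (0.0196 with equal medians). Cdkn1b, which encodes the CDK inhibitor p27, stood at 6.78 and 22.7. Ccne1, the gene of cyclin E1, lay just inside the 2-fold limit with 12.4 and 24.9, and Ccng1 was higher with 182 and 48.0.

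Targets of p53 had the highest ratios of all lists. Across 3 lists 36 of 67 members were at least 2-fold higher (53.7%, against 17.0% of all genes) and 0 at least 2-fold lower, with a median log2 ratio of 1.07. Of 15 arrest targets 6 were higher (median 0.91). Rprm, which holds cells in G2, stood at 37.9 in late G1 and 4.26 in asynchronous cells, the polo-like kinase gene Plk2 at 198 and 36.1, and Cgref1 at 14.4 and 3.31. Cdkn1a, which encodes p21, had 202 and 117, a 1.72-fold difference, and its 1 h value was 277. Of 19 death targets 10 were higher (median 1.07), among them the death receptor gene Fas (11.7 and 0.695), Perp (43.3 and 6.31), Pmaip1, which encodes NOXA (67.5 and 11.8), Apaf1, the apoptosome scaffold (28.1 and 6.61, overlapping Ikbip) and Siva1 (67.3 and 16.5). Of 34 feedback, repair and other targets 20 were higher (median 1.23). Mdm2, the ubiquitin ligase gene that restrains p53 (chromosome 10, start at 117710079), was 7.47-fold higher with 288 and 38.4. Trp73, which encodes a relative of p53, had 51.4 and 7.75, Zfp365 32.5 and 4.89, and Dglucy 27.9 and 5.58. At 1 h Mdm2 stood at 207, Fas at 3.92, Rprm at 4.10 and Plk2 at 239, so Fas and Rprm were higher at 3 h than at 1 h and Plk2 was not.

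Of the p53 targets that could be tested by library (3 from each list), limma called 2 higher. Of all 1310 genes tested this way it called 4.89% higher. Dcxr, a carbonyl reductase gene, rose from asynchronous signals of 5.06 and 4.64 to late G1 signals of 45.2 and 35.1 (log2 difference 3.02, 95% interval 1.88 to 4.15, adjusted p = 0.0032 by limma). Btg2, an antiproliferative gene, rose from 69.7 and 64.5 to 235 and 158 (log2 difference 1.52, adjusted p = 0.0453 by limma). Phlda3, an AKT inhibitor gene, had 307 and 173 against 80.0 and 86.7 (adjusted p = 0.0581), and Pidd1, of the PIDDosome, 95.0 and 54.5 against 30.7 and 31.3 (adjusted p = 0.142), both by limma. With the libraries scaled to equal medians these adjusted p-values were 0.0175 and 0.0478. In these 4 genes both late G1 libraries lay above both asynchronous libraries. The share of all tested genes with such a separation was not counted, so it adds no support to the tests. The other 5 tested members, Ddit4, Gdf15, Gadd45a, Trp53i11 and Sco2, had adjusted p-values of 0.308 to 0.945. A pair of CATG words with 6 bases between them, a core of many p53 sites, was in 25 of all 9811 promoter windows (0.255%) and in 0 of the 49 windows of p53 targets. These windows end 250 bases upstream.

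**Figure D3:**
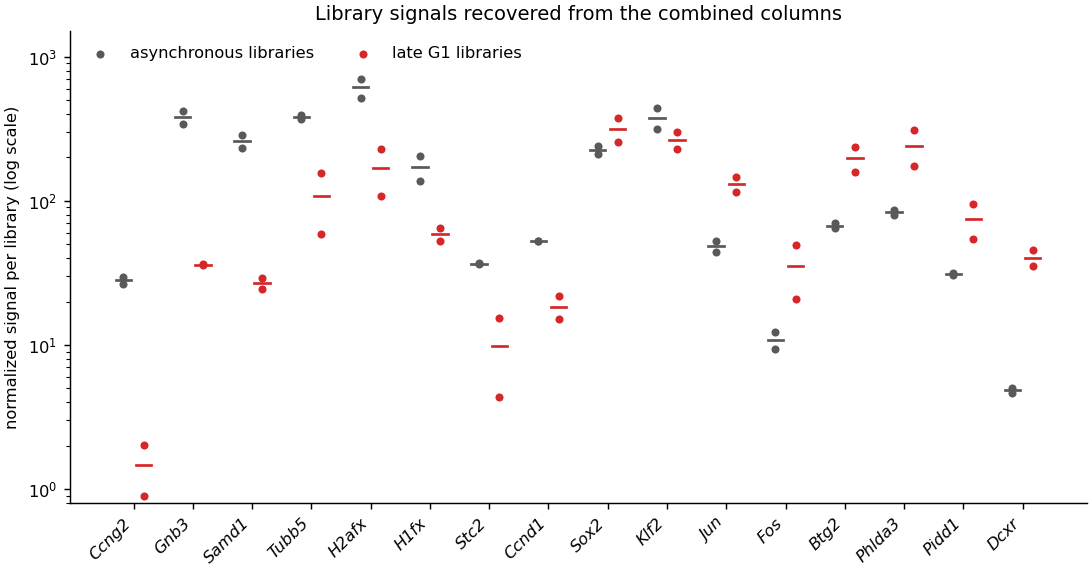
Library signals (y axis, log scale) of 16 genes recovered from the combined columns, with 2 asynchronous libraries (grey) and 2 late G1 libraries (red) per gene and a bar at their mean. Late G1 points lie below both asynchronous points from Ccng2 to Ccnd1 and for Klf2, and above them for Sox2 and from Jun to Dcxr. Ccnd1, Sox2, Klf2, Jun, Fos, Phlda3 and Pidd1 were not called by limma.

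Immediate early genes passed 2-fold about as often as all genes did. Of 28 members 6 were higher (21.4%, against 17.0% of all genes) and 1 was lower (3.57%, against 5.13%), with a median of 0.41. Fos had late G1 libraries at 49.1 and 20.9 and asynchronous libraries at 12.3 and 9.41 (adjusted p = 0.0983 by limma), and Jun 146 and 116 against 52.8 and 43.9 (adjusted p = 0.062). The groups did not overlap in either gene, and both passed with equal medians (0.0478 and 0.0267). Atf3 stood at 35.4 and 6.12, and Btg1 at 127 and 42.6. Egr1 had 8.52 and 16.0, and Ier3, the lower member, 7.34 and 66.5. Ier3 rests on few reads, 2 and 2 in late G1 and 27 and 6 in asynchronous cells. Of 13 ERK feedback genes 4 were higher (30.8%) and 0 lower. Phlda1 rose in the library test from 43.2 and 27.7 to 132 and 104 (log2 difference 1.76, 95% interval 0.77 to 2.74, adjusted p = 0.0273 by limma). The Sprouty genes Spry2 and Spry4, which dampen receptor signalling to ERK, had log2 ratios of 1.17 and 1.00. MEK was inhibited in the culture medium of both groups.

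Of 17 Wnt and TCF feedback genes 3 were higher (Rnf43, Nkd2 and Bmp4), a share of 17.6% close to the 17.0% of all genes. Lower were 2, Ccnd1 and Axin2 (11.8%, against 5.13% of all genes). Axin2, a direct target of beta-catenin, had library signals that did not separate by test, with 2 and 19 reads in late G1 and 22 and 22 in asynchronous cells (adjusted p = 0.118 by limma). Of 15 LIF and STAT3 genes 3 were lower and 0 higher: Gbx2 (5.19 in late G1, 14.0 in asynchronous cells), the kinase gene Pim1 (30.4 and 74.0) and Socs2 (22.0 and 50.4). Socs3, a STAT3 feedback inhibitor gene, had 86.2 and 79.6. In the Nodal, BMP and Id list, Id1 had 7.12 and 57.2 but rests on 0 and 3 reads in late G1 and 14 and 5 in asynchronous cells, Lefty1 had 1.25 and 3.07, and Nodal itself 181 and 93.4.

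The pluripotency factors stayed within 2-fold, as did 77.8% of all genes. Pou5f1, which encodes OCT4, stood at 80.0 in late G1 and 139 in asynchronous cells (1.73-fold lower), Sox2 at 317 and 226 (1.40-fold higher), Nanog at 119 and 136, Klf4 at 183 and 147, Esrrb at 93.5 and 61.0 and Myc at 23.4 and 17.5. The Sox2 libraries had 378 and 256 against 240 and 212 (log2 difference 0.46, adjusted p = 0.561 by limma). Of 28 naive pluripotency genes 3 were lower (10.7%, against 5.13% of all genes) and 0 higher (against 17.0%): Tcl1 (2.85 and 11.1), Lin28a (log2 ratio -1.49) and Gbx2. Of 15 formative and primed genes 3 were lower and 0 higher, Sox3, Tcf15 and Pou3f1, and the median of that list was 0.60 below that of all genes. Among 7 of 8 fixed markers of pluripotent cells with a value, 0 passed 2-fold, and their summed signal was 911 in late G1 and 957 in asynchronous cells.

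Markers of fibroblasts, the usual feeder cells, were detected in both groups. Of 15 fixed markers 9 were in the table, 0 of them listed at 0 in either column, with summed signals of 160 in late G1, 117 in asynchronous cells and 168 at 1 h. Pdgfra (6.42 and 0.880), Snai2 (5.64 and 0.727), Twist1 (7.90 and 1.58) and Loxl1 (30.6 and 12.8) passed 2-fold upward, Thy1 (log2 ratio -1.02) was lower, and Col1a1 had 9.37 and 5.44. The markers with the highest signal differed little, Fn1 with 61.3 and 53.4 and Sparc with 31.8 in both columns, and Pdgfrb had 4.60 and 5.52. On the longer feeder list 6 of 16 members were higher (37.5%, against 17.0% of all genes) and 1 was lower, with a median of 0.83 and summed signals of 182 in late G1 and 131 in asynchronous cells. The part of feeder cells in the differences of other genes was not tested. Gata6, an endoderm regulator, had 7.29 and 1.75, while Gata4, the other endoderm marker with a value, had 1.48 and 1.42. Pax6, a neural regulator that overlaps Elp4, had 3.78 and 1.73, but the neural markers Sox1 (20.5 and 26.2) and Neurog2 (4.01 and 4.09) were not higher. Summed neural signal was 28.3 in late G1 and 32.0 in asynchronous cells. The mesoderm and trophoblast markers with a value stayed within 2-fold.

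Genes of glucose use and of the amino acid stress response were lower as groups. Of 26 glycolysis genes 9 were at least 2-fold lower (34.6%, against 5.13% of all genes) and 2 higher (7.69%, against 17.0%). Their median was 0.80 below that of all genes. The glucose transporter gene Slc2a3 had 36.1 in late G1 against 121 in asynchronous cells, phosphoglycerate kinase Pgk1 6.44 and 19.1, aldolase Aldoa 37.2 and 90.7, and pyruvate kinase Pkm 51.9 and 119. At 1 h the values were 93.4 for Slc2a3, 15.6 for Pgk1, 51.1 for Aldoa and 97.0 for Pkm. Of 28 ATF4 and unfolded protein response genes 9 were lower (32.1%) and 0 higher, with a median 0.81 below that of all genes. The lowest was Nupr1, a stress-induced chromatin protein gene (1.52 and 45.8), followed by the amino acid transporter gene Slc7a3 (2.97 and 13.9, overlapping Snx12) and the glutathione-degrading Chac1 (6.58 and 30.4). Stc2, a secreted glycoprotein gene on both the ATF4 and the hypoxia list, fell from library signals of 36.4 and 36.8 to 15.3 and 4.32 (log2 difference -2.15, 95% interval -3.41 to -0.90, adjusted p = 0.0337 by limma). Atf4 itself had 350 and 207 against 507 and 429 (adjusted p = 0.308 by limma). Of 20 aminoacyl-tRNA synthetase genes 4 were lower and 0 higher: Sars (9.91 and 28.1), Aars, Nars and Iars. Of 18 FOXO and fasting genes 6 were lower (33.3%), Klf15 (9.89 and 29.3) and Foxo4 (8.56 and 23.1) among them, while Foxo3 was higher (51.0 and 21.0).

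Tubulin and ribosomal protein genes had medians below 0. Of 18 tubulin genes 5 were lower (27.8%, against 5.13% of all genes) and 1 higher (5.56%, against 17.0%). Tubb5 fell from asynchronous library signals of 392 and 372 to 157 and 58.4 in late G1 (adjusted p = 0.0158 by limma), and Tuba1b had 128 and 353, Tuba1c 37.0 and 136, and Tubb4b 21.4 and 91.2. The testis tubulin gene Tuba3b had 0.0869 and 1.73. Tubulin genes may share reads among near-identical copies. Of 76 ribosomal protein genes 4 were at least 2-fold lower (5.26%, near the 5.13% of all genes) and 0 higher, yet their median log2 ratio was -0.54. Their distance from the median gene was -0.75, and it ran from -0.76 to -0.39 over the settings tried. Rps16 had library signals of 149 and 101 against 326 and 263 (adjusted p = 0.0956 by limma), and Rpl39 182 and 86.6 against 322 and 273 (adjusted p = 0.115), and in both genes the groups did not overlap.

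Most other lists lay near the median gene. Members at least 2-fold higher and lower numbered 4 and 2 of 74 for the mitochondrial ribosome, 6 and 1 of 74 for oxidative phosphorylation, 4 and 1 of 42 for the proteasome, 2 and 1 of 47 for splicing factors and 2 and 0 of 40 for the RNA polymerase II machinery. They numbered 1 and 1 of 40 for the nuclear pore and lamina, 4 and 2 of 40 for ribosome biogenesis, 1 and 1 of 23 for NRF2 targets, 3 and 3 of 34 for autophagy and lysosome, and 3 and 3 of 30 for cholesterol and lipid genes. Each of these shares of higher members is under the 17.0% of all genes. Single members stood out. Kpna2, an importin alpha gene, had 21.3 in late G1 against 96.7 in asynchronous cells. Psmb6, a catalytic proteasome subunit, had 43.9 and 8.58, and Polr2b, a large subunit of RNA polymerase II that overlaps Igfbp7, 67.4 and 17.4. Ebna1bp2, of ribosome assembly, had 6.02 and 28.5. The chromodomain gene Cbx2 (13.8 and 35.6), of Polycomb repressive complexes, was lower, while Pcgf3 was higher (30.8 and 10.5). Among heat shock genes Hspa1a had 6.05 and 0.944 and Fkbp4 29.8 and 76.7. Of 30 SRF, YAP and actin genes 6 were higher (20%) and 1 lower (3.33%), shares near those of all genes, with Ankrd1, a YAP target, at 8.12 and 1.03. Interferon and NF-kB genes split, with 5 of 23 higher (21.7%), among them Tap1 (26.6 and 6.82). Lower were 6 (26.1%, against 5.13% of all genes), among them Oas1a (2.33 and 9.16).

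**Figure D4:**
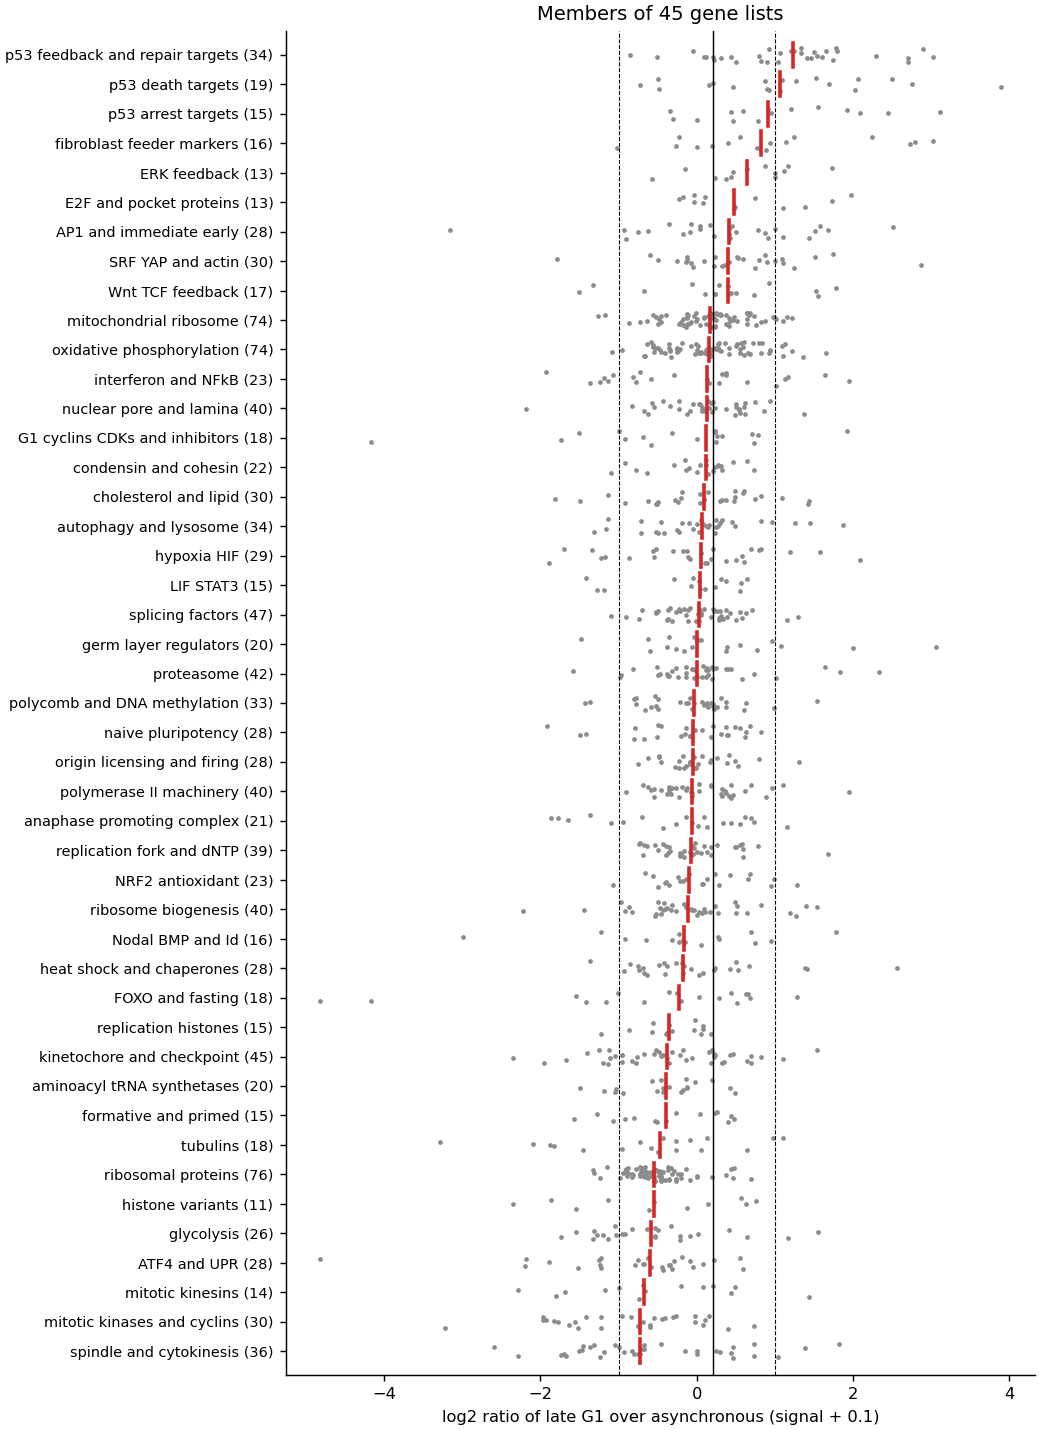
Log2 ratios of late G1 over asynchronous signal (x axis) for the members of 45 gene lists (rows, number of tested members in brackets), 1 grey dot per gene, with the list's median as a red bar, the median of all genes (0.21) as a solid line and 2-fold as dashed lines. The 3 p53 lists have the highest medians (0.91 to 1.23) and the spindle list and the mitotic kinases the lowest (-0.73 and -0.72).

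The strongest single differences were not confined to these lists. Leaving out genes below the median mean signal, predicted genes and overlaps, the lowest ratios after Nupr1 and Ccng2 belonged to Mos, Adm2, Gnb3, Samd1, Plk1, Rln3, Ier3 and Hif1an. Gnb3, a G protein beta subunit gene, had late G1 libraries at 35.6 and 36.7 and asynchronous libraries at 340 and 417 (limma log2 difference -3.38, adjusted p = 0.000303), and Samd1, a gene of a CpG island binding protein, 24.3 and 29.1 against 286 and 231 (log2 difference -3.27, adjusted p = 0.000458). Sema4c, a semaphorin gene, fell from 21.8 and 19.0 to 4.59 and 1.73 (log2 difference -2.80, adjusted p = 0.014 by limma). Mos, the oocyte kinase gene, had 2 and 0 reads in late G1 and 14 and 24 in asynchronous cells (adjusted p = 0.00512 by limma). Hif1an, an oxygen-sensing hydroxylase gene, stood at 3.70 and 32.8, and Adm2, a peptide hormone gene, at 1.74 and 21.3. The rest of the 15 lowest were Id1, Ern2, Wfdc2, Sema4c and Top2a, from 7.93-fold to 6.06-fold lower.

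At the upper end, 10 of the 15 genes had an asynchronous signal below the median gene's 9.43. The choice by ratio favours this, and most of the 15 lowest genes were likewise low in late G1. It is therefore not a trait of the upper end. Rxfp2, a relaxin family receptor gene, was 26.0-fold higher (25.2 in late G1, 0.871 in asynchronous cells), Oxld1 24.4-fold (651 and 26.6), Rgs14, a G protein regulator gene, 23.9-fold (46.2 and 1.84), and Npr1, a natriuretic peptide receptor gene, 19.2-fold (123 and 6.32). Cpz, Ankrd65, Shisa4 and Tmtc3 followed at 17.3-fold to 13.7-fold. Long genes were among them: Utrn, the utrophin gene with a span of 487702 bp, had 172 and 13.3, and Nav2, with a span of 651028 bp, 26.8 and 2.22. Rxfp2, Rgs14 and Cpz were low at 1 h (4.68, 5.17 and 8.43), whereas Npr1 was at 127 by then. Nkx2-9, a homeobox gene, rose from library signals of 7.65 and 4.01 to 73.7 and 48.9 (limma log2 difference 3.41, 95% interval 2.28 to 4.55, adjusted p = 0.00124). Shisa4 was called as well (adjusted p = 0.00684 by limma, 0.0615 with equal medians), with 42 and 33 reads in late G1 and 0 and 5 in asynchronous cells. Ldb3, Aqp7, Neurod1 and Ddit4l closed the upper 15 at 11.7-fold to 10.3-fold. Other genes called higher, picked after their values were seen, were Tert, the telomerase catalytic subunit, with 110 and 74.1 against 14.4 and 16.8 (log2 difference 2.53, adjusted p = 0.00467 by limma), and Rac3, a small GTPase gene, with 733 and 622 against 139 and 94.4 (log2 difference 2.56, adjusted p = 0.00175 by limma).

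Gene families that share a symbol stem gave a survey that did not start from chosen lists. Of 261 families with at least 8 tested members, the lowest medians belonged to Cbx (-0.72), Rpl (-0.55), Pou (-0.45), Rps (-0.42) and Tubb (-0.38), and the highest to Krt (2.14), Wnt (2.05), Olfr (1.60), Scn (1.58) and Adcy (1.48). Equal medians, equal totals and quantile normalization left all 10 of these medians on the same side of 0, but quantile normalization brought Krt down to 0.89, Adcy to 0.83, Scn to 0.77 and Olfr to 0.72, all below Wnt at 1.68. Of 15 Wnt ligand genes 11 were at least 2-fold higher (73.3%, against 17.0% of all genes) and 2 lower (13.3%, against 5.13%). Wnt6 had 53.6 in late G1 against 10.9 in asynchronous cells, Wnt10a 26.7 and 6.10, Wnt8a 12.3 and 0.593 and Wnt3 11.6 and 2.04, while Wnt10b had 3.58 and 11.9. Of 33 olfactory receptor genes, which are normally silent outside sensory neurons, 24 were higher (72.7%) and 1 was lower (3.03%). Their median signal was 2.90 in late G1 against 0.840 in asynchronous cells. Both lie in the range of the lowest quintile of mean signal (up to 3.92), where 32.3% of all genes were higher. The part of low signal in the family medians was not tested. Of 9 adenylyl cyclase genes 7 were higher (77.8%), with Adcy4 called in the library test (92.1 and 97.6 against 13.1 and 9.33, log2 difference 3.09, adjusted p = 0.00124 by limma). Members of these families were picked after their values were seen.

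The differences varied with the level and length of genes. In the lowest quintile of mean signal 32.3% of genes were at least 2-fold higher and the median log2 ratio was 0.54, and in the other quintiles 11.3% to 15.8% were higher. Lower genes varied less, from 4.25% to 6.25% of a quintile. By RefSeq span the median ran from -0.02 in the shortest quintile (up to 7459 bp) through 0.08, 0.17 and 0.27 to 0.46 in the longest (from 62639 bp). Genes at least 2-fold lower made up 11.4% of the shortest quintile and 1.12% of the longest, and genes at least 2-fold higher 15.3% and 20.7%. Among the upper 60% of genes by mean signal the medians by quintile of span ran from -0.07 to 0.37. Promoters with few CG dinucleotides (up to 11 in the window) belonged to genes that were higher in 27.1% of cases and lower in 7.34%, and promoters with 32 or more to genes that were higher in 14.2% and lower in 2.54%. Chromosome medians ran from 0.06 (chromosome 7) and 0.07 (chromosome 11) to 0.39 (chromosome 18).

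**Figure D5:**
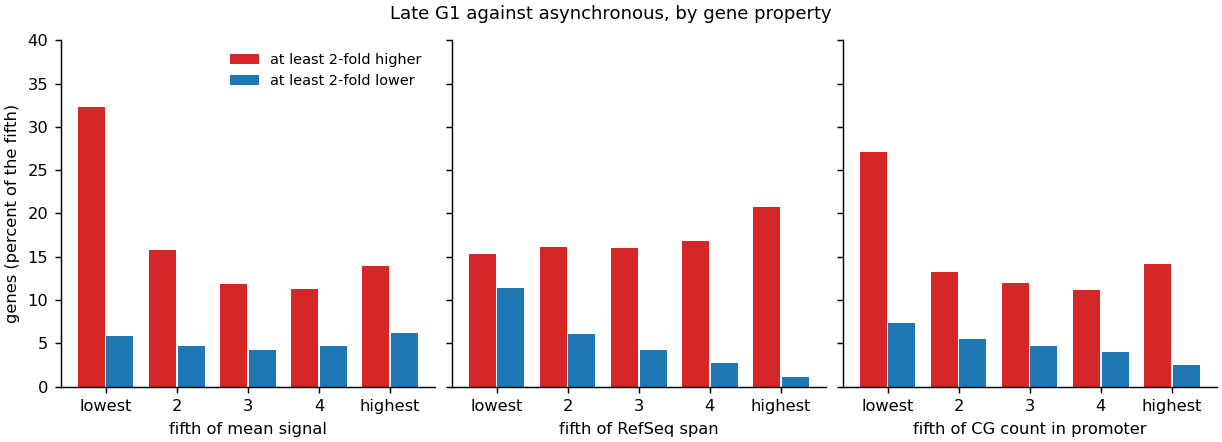
Percent of genes at least 2-fold higher (red) and at least 2-fold lower (blue) in late G1 (y axis) by quintiles of mean signal, of RefSeq span and of the count of CG dinucleotides in the promoter window (x axes). The lowest quintile of signal has 32.3% higher genes, the share of lower genes drops from 11.4% to 1.12% with span, and promoters poorest in CG have 27.1% higher genes.

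Other promoter letters were searched in the same windows. Genes whose window held TATAAA, the TATA box, were higher in 21.1% of cases against 15.3% without it, and genes with TGACTCA, the AP-1 site, in 20.1% against 15.6%. Genes with TGACGTCA, the full CRE bound by CREB and ATF factors, were higher in 7.96% against 16.0%. The E2F words TTTGGCGC and TTTCCCGC were in 12.8% and 17.0% of 47 replication gene windows and in 0.999% and 2.12% of all windows. Matches on both strands were counted, words were allowed to overlap, and a match is a description of the letters only.

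Neighbouring genes that start back to back shared their direction more often than pair members at large. Of 789 pairs on opposite strands with starts within 1000 bp, 19 had both members at least 2-fold higher, 5 had both lower and 4 had 1 of each kind. A higher member had a higher partner in 23.0% of cases, where 10.5% of all pair members were higher, and a lower member had a lower partner in 18.9%, where 3.36% were lower. Pairs that were both higher, picked after their values were seen, included the collagen genes Col4a1 (1.92) and Col4a2 (1.39), and Tmtc3 (3.78) with Cep290 (1.43). Pairs that were both lower were Prr11 (-2.77) and Ska2 (-1.11), Miip (-2.72) and Fv1 (-1.69), Prr3 (-1.85) and Gnl1 (-1.25), C2 (-1.02) and Ehmt2 (-1.01), and BC005624 (-1.33) and Usp20 (-1.26), all as log2 ratios.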

How the data were processed

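Per the file headers, the authors deposited 1 combined column per group with a normalized signal for each gene. The submitters' processing notes name cutadapt, Bowtie2, Picard and SAMtools and the build GRCm38/mm10, without versions. The counting rule, its use of strand and the scaling of libraries were not given in the sources used here, so signal from overlapping genes on either strand may not be separable. The columns were matched to the 3 h release and the untreated cells by meaning.

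The log2 ratio of (signal + 0.1) was taken for genes with a mean of at least 0.5 that were not listed at 0. The pseudocount understates folds of low genes. The gene lists and groups were chosen with earlier results of these data known, and lists are described by counts and medians. Named genes are the 15 highest and 15 lowest ratios among genes whose mean signal reaches the median, leaving out predicted and overlapping genes, up to 6 members per list furthest from the median gene, and 13 pluripotency, cycle, p53 and collagen genes given whatever their values. Other genes are said to be picked after their values were seen.

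Library reads were recovered where all 4 columns gave whole reads at 1 length per gene, with at least 6 of 8 read numbers above 0. This step, added after seeing the data because the combined columns allow no replicate test, was tested on data simulated in the same form. Library signals, log2(signal + 0.1), entered limma 3.58.1 in R 4.3.3 (trended eBayes, Benjamini-Hochberg over 1310 genes, 2 against 2 libraries). Its p-values measure the spread between these libraries, which may be technical. Depth is known only for these genes, with totals over them of 135680 and 118740 reads in late G1 and 117556 and 124860 in asynchronous cells. Spans and promoters are RefSeq's on GRCm38.p6: 14180 symbols matched directly, 203 by a synonym and 478 not. A RefSeq promoter lay within reach of the table's start for 9893 genes.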

Additional observations from a re-analysis of the deposited data

How the results depend on the processing

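Pseudocounts of 0.02 and 0.5, no filter, a minimum mean of 2.5, equal totals, genes listed at 0 kept, and leaving out short, unmatched or overlapping genes kept the counts of 2509 higher and 755 lower genes within 1.5 times. Equal medians gave 1164 lower genes, and quantile normalization 1523 higher and 1359 lower. The median of all genes stayed between -0.04 and 0.22. Of 1980 values of the 45 lists under 11 settings 81 moved and 0 reversed, where small counts move easily. The medians of 11 lists that lie near 0 changed sign under a rescaling. Relative to the median gene, 2 lists changed sign, E2F with pocket proteins and the mitochondrial ribosome.

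Alternatives added after seeing the data concern the recovered genes. Of 1605, the recovered genes at least 2-fold higher numbered 264, and 187 to 376 with 1 library left out. The recovered genes at least 2-fold lower numbered 196, and 181 to 424 with 1 library left out, the highest without the first late G1 library. The 64 higher limma calls became 19 to 31 and the 33 lower calls 5 to 62 with 1 library left out, where the lone library is assumed to vary like the other group. Equal library medians gave 78 lower calls, and a minimum mean of 30 reads gave 53. No paired analysis was possible because the columns combine the libraries and the recovered libraries carry no replicate letters. Depth limits short and weak genes most.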
